A study of Mus musculus with 9 samples.

Results

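The aminoacyl-tRNA synthetase genes were followed through bone marrow cells of leukaemic mice that had been sorted by the surface proteins CD43 and c-Kit. The set was chosen by gene symbol and holds 36 genes of the 24391 rows in the count table, 20 for cytosolic enzymes and 16 for mitochondrial enzymes, whose symbols end in 2. All 36 had a row, and all 36 were among the 12573 genes that passed the filter on low counts and were tested. The rule uses symbols alone, although the set was proposed with earlier results of these data known.

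RNA-seq libraries came from C57BL/6 mice aged 6 to 8 weeks that carried leukaemia driven by AML1-ETO9a, a shortened variant of the fusion protein AML1-ETO, and all 3 populations carried that model. The populations were CD43++ckit+, CD43+ckit- and CD43-ckit-, with 3 libraries each. The labels give neither how the fusion was introduced nor whether a population's libraries were made from different mice, so the p-values reflect only library-to-library spread, which may be technical. No normal marrow is among the samples.

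An aminoacyl-tRNA synthetase joins an amino acid to its transfer RNA, and the charged transfer RNA then delivers the amino acid to the ribosome. Cytosolic synthetases serve the ribosomes of the cytoplasm, and a separate, nuclear-encoded set serves the ribosomes inside mitochondria; the genes Kars and Gars supply lysine and glycine enzymes to both compartments. Several cytosolic synthetases sit together in the multi-synthetase complex, held by the scaffold proteins AIMP1, AIMP2 and EEF1E1. Many cytosolic synthetase genes are known targets of ATF4, the transcription factor of the amino acid response, and marrow precursors need abundant protein synthesis as they grow and mature.

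Total counts per library ranged from 17966197 to 31781746. Kit, which encodes c-Kit, averaged 164.2 ± 15.9 CPM in CD43++ckit+ cells, 15.8 ± 7.01 CPM in CD43+ckit- cells and 34.1 ± 13.2 CPM in CD43-ckit- cells (SD, n = 3 each), so the lowest mean was in CD43+ckit- cells. Spn, which encodes CD43, averaged 502.4 ± 63.7, 194.2 ± 50.3 and 142.3 ± 61.2 CPM in the same order. CPM here is a gene's count relative to the TMM-scaled library total, and levels are compared between populations for a gene, not between genes, because CPM is not corrected for length. The libraries least correlated with the rest of their population were number 3 of CD43++ckit+ and number 1 of both others. Synthetase calls that change without all 3 of them are given with both values. For the other genes and lists such changes are not all given.

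Promoter letters were available for 26 of the 36 genes from RefSeq (GRCm38.p6), as the 250 bases before and 50 bases after the annotated start. They were searched on both strands for TGATGNAA, the core of the C/EBP-ATF response element to which ATF4 binds (N is any base), and for CACGTG, the E-box that MYC-MAX binds. The ATF core was present in 5 of the 12 cytosolic genes with a promoter and in 0 of the 14 mitochondrial genes, against 3.97% of all 32851 promoters in the table. The E-box was present in 4 of the 12 cytosolic genes (Farsb, Aars, Iars and Tars) and in 1 of the 14 mitochondrial genes (Ears2), against 7.15% of all promoters. The 5 promoters with an ATF core are shown because they hold every such match among the members, from 150 bases before to 30 bases after the start, 5′ to 3′ on the gene's strand. Capitals mark the ATF core in either orientation and the E-box; no 2 matches overlap.
Aars (chr8:111033692-111033871, plus strand): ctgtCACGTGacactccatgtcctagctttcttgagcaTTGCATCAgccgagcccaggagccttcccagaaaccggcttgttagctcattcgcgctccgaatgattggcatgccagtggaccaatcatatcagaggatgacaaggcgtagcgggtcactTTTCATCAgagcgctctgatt
Gars (chr6:55037851-55038030, plus strand): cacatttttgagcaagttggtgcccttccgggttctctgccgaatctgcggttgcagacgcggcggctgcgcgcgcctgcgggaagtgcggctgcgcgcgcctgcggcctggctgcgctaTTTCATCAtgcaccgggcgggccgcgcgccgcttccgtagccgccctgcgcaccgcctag
Iars (chr13:49681980-49682159, plus strand): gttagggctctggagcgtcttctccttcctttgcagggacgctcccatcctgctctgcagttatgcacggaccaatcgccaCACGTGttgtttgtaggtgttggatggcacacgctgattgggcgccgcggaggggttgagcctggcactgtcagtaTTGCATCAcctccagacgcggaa
Tars (chr15:11399629-11399808, minus strand): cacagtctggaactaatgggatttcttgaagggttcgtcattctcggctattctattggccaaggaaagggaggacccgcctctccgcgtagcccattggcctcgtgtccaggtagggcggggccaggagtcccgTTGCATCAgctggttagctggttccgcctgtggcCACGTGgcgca
Yars (chr4:129189753-129189932, plus strand): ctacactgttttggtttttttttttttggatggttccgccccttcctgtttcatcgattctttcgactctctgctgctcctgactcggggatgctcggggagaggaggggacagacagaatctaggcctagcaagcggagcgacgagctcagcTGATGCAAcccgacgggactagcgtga

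Most cytosolic synthetase mRNAs were highest in CD43++ckit+ or CD43+ckit- and lowest in CD43-ckit- cells. In CD43++ckit+ against CD43-ckit-, 16 of the 20 cytosolic genes were higher, 1 was lower (Nars) and 3 did not pass the test (Aars, Cars and Sars), where 39.7% of all tested genes were higher and 27.7% lower. The median log2 fold change was 1.14 for the cytosolic genes and 0.19 for all tested genes. A gene passed at a Benjamini-Hochberg adjusted p under 0.05 in edgeR's quasi-likelihood test, and log2 fold changes are the first-named population minus the second. These are bulk samples, so fewer cells of a type and less RNA per cell cannot be told apart.

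In CD43++ckit+ against CD43+ckit-, 9 of the 20 cytosolic genes were higher (19.7% of all tested genes), 1 was lower (20.1%) and 10 did not pass. The cytosolic median was 0.32 and the median of all tested genes 0.01; without library 1 of CD43+ckit- these were 0.19 and 0.03. In CD43+ckit- against CD43-ckit-, 18 of the 20 were higher (31% of all tested genes), 1 was lower (20.9%) and Cars alone did not pass, with a cytosolic median of 0.74 and a median over all tested genes of 0.13. The count of 18 was 12 with DESeq2 size factors, and 13 to 18 without single libraries. The comparisons share populations and are therefore not independent of each other. Libraries of the populations did not overlap for 15 of 20 cytosolic genes in CD43++ckit+ against CD43+ckit- (55.5% of all tested genes), for 17 of 20 in CD43++ckit+ against CD43-ckit- (73.2%) and for 19 of 20 in CD43+ckit- against CD43-ckit- (64.3%).

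Most mitochondrial synthetase mRNAs were also lowest in CD43-ckit- cells. In CD43++ckit+ against CD43-ckit-, 13 of the 16 were higher (39.7% of all tested genes), Fars2 was lower (27.7%), and Hars2 and Lars2 did not pass, with a median log2 fold change of 1.44 against 0.19 over all tested genes. In CD43++ckit+ against CD43+ckit-, 7 of the 16 were higher (19.7%), 0 were lower (20.1%) and 9 did not pass, with a median of 0.51 against 0.01. In CD43+ckit- against CD43-ckit-, 12 were higher (31%), 0 were lower (20.9%) and 4 did not pass, with a median of 0.82 against 0.13. The count of 12 was 7 without library 2 of CD43+ckit- and under DESeq2 size factors. It was also 7 under a stricter filter, which ended the calls of Mars2, Rars2 and Tars2 and left Pars2 and Wars2 untested. Libraries did not overlap for 14 of the 16 genes in CD43++ckit+ against CD43-ckit- (73.2% of all tested genes), for 13 in CD43++ckit+ against CD43+ckit- (55.5%) and for 13 in CD43+ckit- against CD43-ckit- (64.3%).

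Ordered by mean CPM, 13 of the 16 mitochondrial genes and 11 of the 20 cytosolic genes were highest in CD43++ckit+ cells, intermediate in CD43+ckit- cells and lowest in CD43-ckit- cells, an order held by 30.9% of all tested genes. The mean of CD43+ckit- was the highest for 8 of the 20 cytosolic genes (Aars, Cars, Farsa, Hars, Mars, Qars, Sars and Yars) and for 1 of the 16 mitochondrial genes (Sars2), against 23.6% of all tested genes. Of those 9, only Aars passed the test as lower in CD43++ckit+ cells than in CD43+ckit- cells.

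Of the 31 synthetase calls between CD43++ckit+ and CD43-ckit-, 29 were kept whichever single library was left out, as were 12 of 17 calls between CD43++ckit+ and CD43+ckit- and 19 of 31 between CD43+ckit- and CD43-ckit-. In the first set Farsa and Mars were lost without some library, and in the second Aars, Farsb, Lars, Tars and Vars2. In the third Aars, Dars, Gars, Mars, Mars2, Nars2, Rars2, Sars, Tars, Tars2, Vars2 and Yars2 were lost without some library, with adjusted p from 0.0502 to 0.178 (edgeR).

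**Figure D1:**
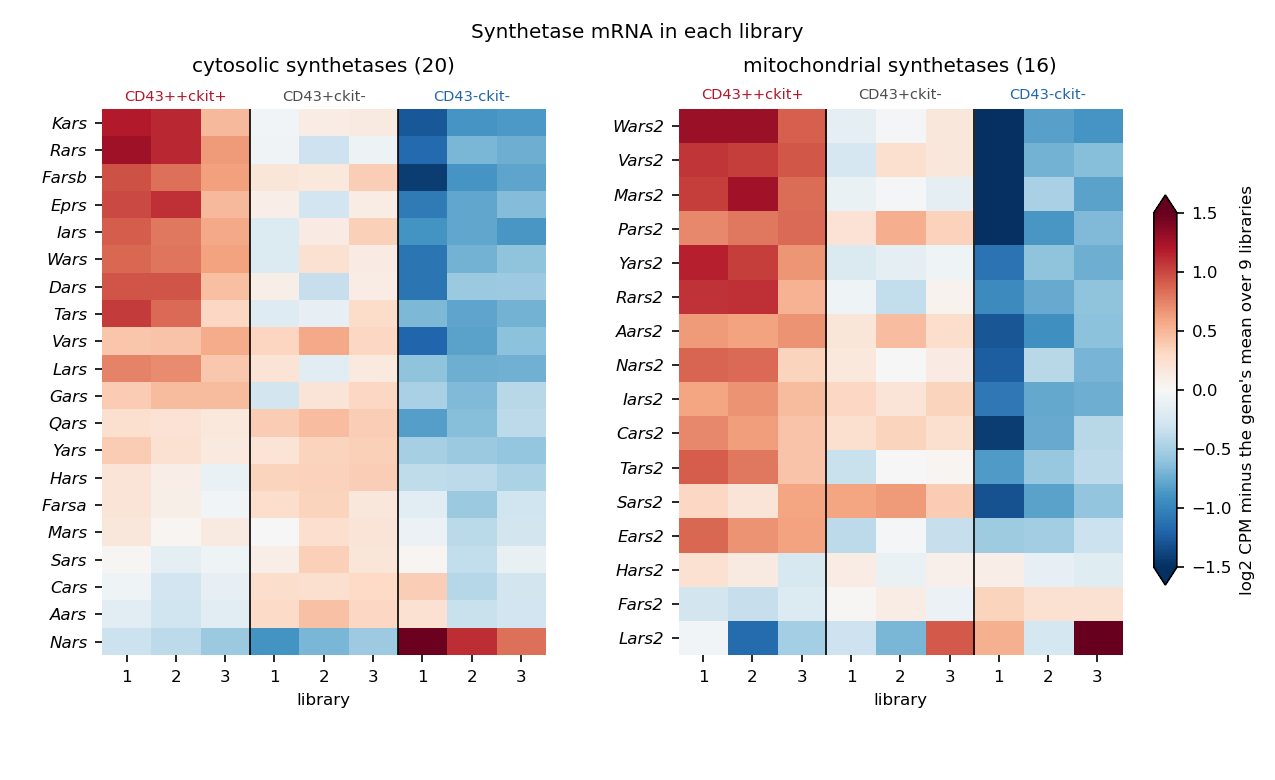
Heat map of log2 CPM of each synthetase gene in each of the 9 libraries, minus the gene's own mean over the 9 libraries, with genes ordered by their difference between CD43++ckit+ and CD43-ckit-; the colour scale ends at the values shown and darker cells lie beyond it. Most rows run from red in CD43++ckit+ cells to blue in CD43-ckit- cells, while Nars, Fars2 and Lars2 at the bottom run the other way and Lars2 differs within each population.

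**Figure D2:**
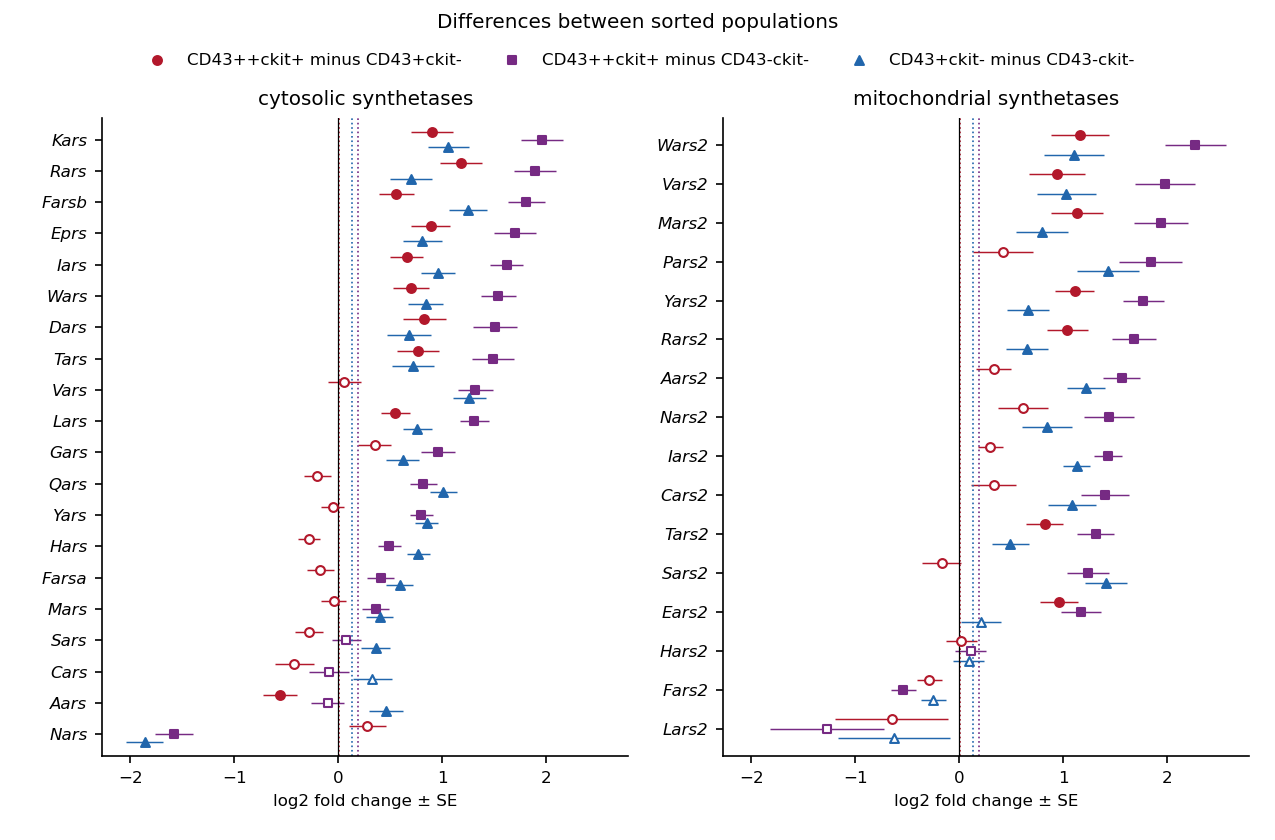
Log2 fold change with its standard error for each synthetase in the 3 comparisons; filled symbols passed an adjusted p under 0.05, open symbols did not, and dotted lines give the median over all 12573 tested genes (0.01, 0.19 and 0.13). In the comparison of CD43++ckit+ with CD43-ckit-, 16 cytosolic and 13 mitochondrial genes lie to the right as filled squares.

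The 8 synthetases of the multi-synthetase complex (Dars, Eprs, Iars, Kars, Lars, Mars, Qars and Rars) were all higher in CD43++ckit+ cells than in CD43-ckit- cells and all higher in CD43+ckit- cells than in CD43-ckit- cells, with medians of 1.56 and 0.78, where 39.7% and 31% of all tested genes were higher. With DESeq2 size factors 7 and 5 of the 8 were called higher. In CD43++ckit+ against CD43+ckit-, 6 were higher with a median of 0.74, and Mars and Qars did not pass. Of the 12 free-standing cytosolic genes, 3 were higher and 1 lower in CD43++ckit+ against CD43+ckit- (median 0.01), 8 higher and 1 lower against CD43-ckit- (median 0.64), and 10 higher and 1 lower in CD43+ckit- against CD43-ckit- (median 0.67). With DESeq2 size factors these comparisons had 3, 6 and 7 higher and 2, 1 and 1 lower (medians -0.04, 0.40 and 0.48). Over all tested genes, 19.7%, 39.7% and 31% were higher and 20.1%, 27.7% and 20.9% lower, in the same order of comparisons. The difference between these groups of genes was not tested.

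Kars, the lysyl-tRNA synthetase, had 626.5, 604.1 and 386.5 CPM in CD43++ckit+ cells, 268.4, 298.5 and 301.8 CPM in CD43+ckit- cells, and 114.5, 149.3 and 152.3 CPM in CD43-ckit- cells. No library of one population overlapped another, and library 3 of CD43++ckit+ was the nearest to CD43+ckit-. The log2 fold change was 0.90 ± 0.20 (SE) for CD43++ckit+ minus CD43+ckit- (adjusted p = 0.00665, edgeR), 1.96 ± 0.20 minus CD43-ckit- (adjusted p = 5.68e-05), a 3.89-fold difference, and 1.06 ± 0.20 for CD43+ckit- minus CD43-ckit- (adjusted p = 0.00244).

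Rars, the arginyl-tRNA synthetase, had 102.0, 92.8 and 65.6 CPM in CD43++ckit+ cells, 40.7, 34.0 and 40.2 CPM in CD43+ckit- cells, and 18.8, 26.2 and 25.5 CPM in CD43-ckit- cells. The populations again did not overlap. Its log2 fold change of 1.18 ± 0.20 for CD43++ckit+ minus CD43+ckit- was the largest of the cytosolic genes in that comparison (adjusted p = 0.00176, edgeR); minus CD43-ckit- it was 1.89 ± 0.20 (adjusted p = 6.35e-05). The value for CD43+ckit- minus CD43-ckit- was 0.70 ± 0.20 (adjusted p = 0.0154), and 0.50 with DESeq2 size factors, where it no longer passed (adjusted p = 0.0583).

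Eprs, a single protein that charges both glutamate and proline transfer RNAs, had 213.5, 229.0 and 150.6 CPM in CD43++ckit+ cells, 115.7, 88.03 and 116.1 CPM in CD43+ckit- cells, and 51.8, 62.4 and 68.5 CPM in CD43-ckit- cells. Library 3 of CD43++ckit+ was again the lowest of its population and still above every CD43+ckit- library. The log2 fold changes were 0.89 ± 0.19 for CD43++ckit+ minus CD43+ckit- (adjusted p = 0.00595, edgeR), 1.70 ± 0.20 minus CD43-ckit- (adjusted p = 9.74e-05) and 0.81 ± 0.19 for CD43+ckit- minus CD43-ckit- (adjusted p = 0.00769). Without library 3 of CD43++ckit+, library 1 of CD43+ckit- and library 1 of CD43-ckit- together, Kars, Rars and Eprs kept their direction and their calls in every comparison.

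Vars, the valyl-tRNA synthetase, was lowest in CD43-ckit- cells. It had 693.0, 696.2 and 765.4 CPM in CD43++ckit+ cells, 648.7, 771.5 and 641.0 CPM in CD43+ckit- cells, and 227.2, 297.4 and 337.3 CPM in CD43-ckit- cells. The CD43++ckit+ and CD43+ckit- libraries overlapped (log2 fold change 0.06 ± 0.16, adjusted p = 0.794, edgeR; -0.03 with those least correlated libraries left out), and both lay above every CD43-ckit- library. The differences from CD43-ckit- were 1.32 ± 0.17 for CD43++ckit+ (adjusted p = 0.000144) and 1.26 ± 0.16 for CD43+ckit- (adjusted p = 0.000439).

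Phenylalanyl-tRNA synthetase of the cytosol is built from an alpha subunit, encoded by Farsa, and a beta subunit, encoded by Farsb, and the log2 fold changes of the subunit mRNAs were of different size. Farsb had 89.4, 81.96 and 70.6 CPM in CD43++ckit+ cells, 52.3, 51.5 and 59.9 CPM in CD43+ckit- cells, and 17.3, 25 and 26.6 CPM in CD43-ckit- cells, with no overlap. Farsa had 146.8, 136.9 and 124.8 CPM in CD43++ckit+ cells, 154.5, 161.7 and 144.5 CPM in CD43+ckit- cells, and 114.4, 87.6 and 104.6 CPM in CD43-ckit- cells, with overlap between the first 2 populations. For CD43++ckit+ minus CD43-ckit- the log2 fold change was 1.81 ± 0.18 for Farsb (adjusted p = 4.47e-05, edgeR) and 0.41 ± 0.13 for Farsa (adjusted p = 0.0186), the last not passing when CD43++ckit+ library 1 was left out (adjusted p = 0.0668) or CD43-ckit- library 2 was (adjusted p = 0.0702). With DESeq2 size factors the Farsa value was 0.18 (adjusted p = 0.202), with a stricter filter 0.23 (adjusted p = 0.106), and in a fit of those populations only 0.32 (adjusted p = 0.0795).

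For CD43++ckit+ minus CD43+ckit-, Farsb had a log2 fold change of 0.56 ± 0.17 (adjusted p = 0.0291, edgeR) and Farsa one of -0.17 ± 0.13 (adjusted p = 0.327), which was 0.09 when scaled by library totals. Leaving out CD43++ckit+ library 1 or 2, or CD43+ckit- library 1 or 2, ended the Farsb call (adjusted p from 0.0792 to 0.107). The ratio of Farsb to Farsa counts within a library, which no scaling can move, was 0.609, 0.598 and 0.565 in CD43++ckit+ cells, 0.338, 0.319 and 0.414 in CD43+ckit- cells, and 0.151, 0.285 and 0.255 in CD43-ckit- cells, with no overlap between populations. Of the exon bases of Farsb, 9.5% overlap another gene (Sgpp2).

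Nars, the asparaginyl-tRNA synthetase, was the cytosolic gene that went against the others. It had 217.4, 206.8 and 184.5 CPM in CD43++ckit+ cells, 146.5, 168.4 and 186.4 CPM in CD43+ckit- cells, and 750.9, 583.1 and 482.0 CPM in CD43-ckit- cells. Every CD43-ckit- library lay above every other library, and the other populations overlapped. The log2 fold change was -1.58 ± 0.18 for CD43++ckit+ minus CD43-ckit- (adjusted p = 9.08e-05, edgeR), -1.86 ± 0.18 for CD43+ckit- minus CD43-ckit- (adjusted p = 0.000111) and 0.28 ± 0.18 for CD43++ckit+ minus CD43+ckit- (adjusted p = 0.241).

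Within a library the ratio of Nars to Kars counts was 0.347, 0.342 and 0.477 in CD43++ckit+ cells, 0.546, 0.564 and 0.618 in CD43+ckit- cells, and 6.56, 3.91 and 3.16 in CD43-ckit- cells. The ratio of Nars to Nars2, the mitochondrial enzyme for the same amino acid, was 12.6, 12.2 and 15.5 in CD43++ckit+ cells, 14.0, 17.8 and 18.1 in CD43+ckit- cells, and 187, 82.5 and 82.9 in CD43-ckit- cells. Both ratios were highest in library 1 of CD43-ckit-, and without that library every CD43-ckit- value was still above all others. Nars shares 0% of its exon bases with another annotated gene. It passed the test against CD43-ckit- in both comparisons under every alternative run.

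**Figure D3:**
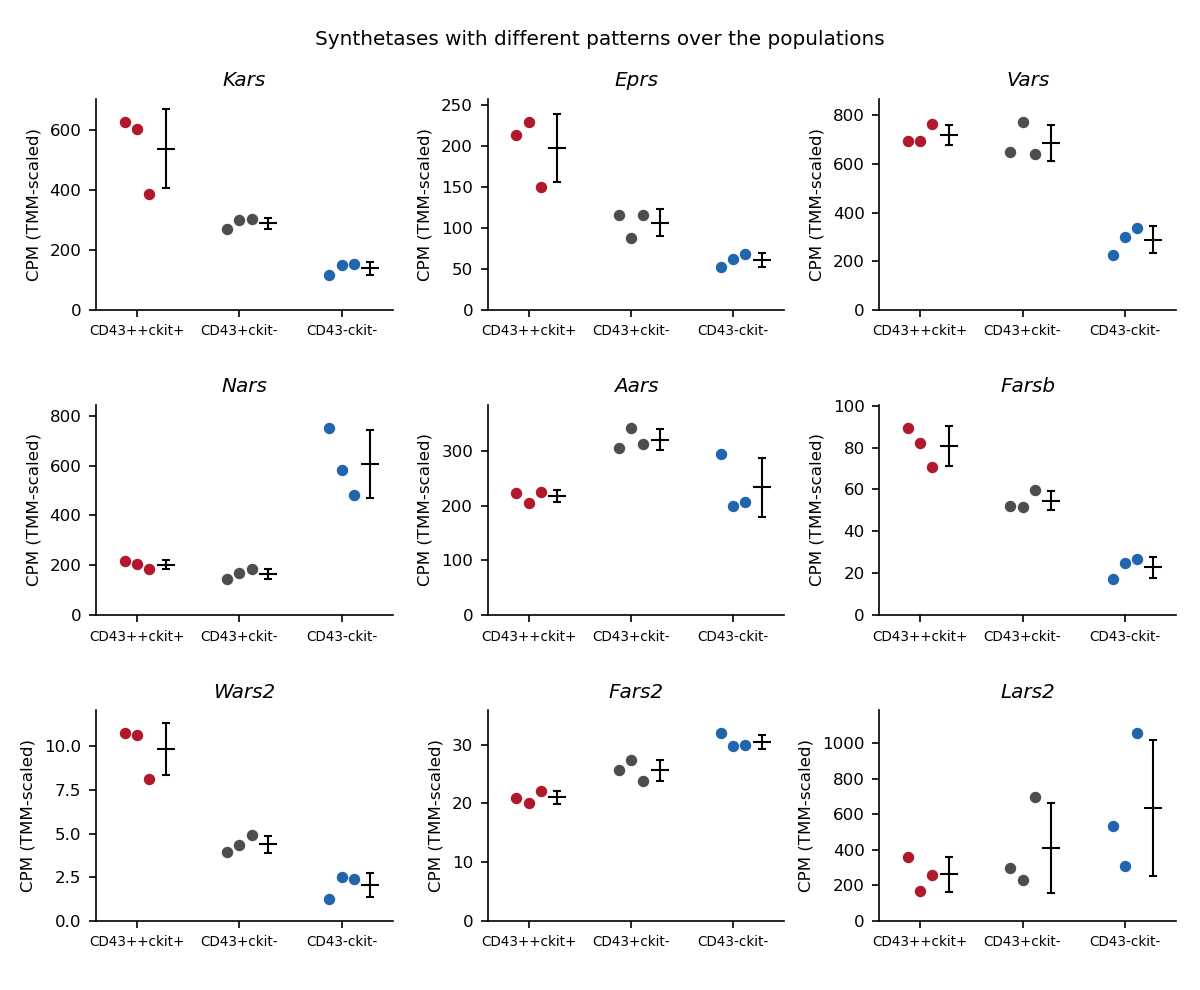
CPM of 9 synthetases in every library (points), with the mean and SD of each population (black); each vertical axis starts at 0. Kars, Eprs, Farsb and Wars2 descend over the populations, Vars is low in CD43-ckit- cells, Aars peaks in CD43+ckit- cells, Nars and Fars2 are highest in CD43-ckit- cells, and Lars2 spreads widely within each population.

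Aars, the alanyl-tRNA synthetase and the member with 2 ATF cores in its promoter, had 223.8, 204.8 and 224.6 CPM in CD43++ckit+ cells, 306.3, 342.1 and 312.1 CPM in CD43+ckit- cells, and 295.1, 199.0 and 206.1 CPM in CD43-ckit- cells. Every CD43+ckit- library was above all others, and library 1 of CD43-ckit- was the nearest to it. Aars was lower in CD43++ckit+ cells than in CD43+ckit- cells (log2 fold change -0.56 ± 0.16, adjusted p = 0.0223, edgeR) and higher in CD43+ckit- cells than in CD43-ckit- cells (0.46 ± 0.16, adjusted p = 0.0397). The value for CD43++ckit+ minus CD43-ckit- was -0.10 ± 0.16 (adjusted p = 0.586), and it was 0.84 when scaled by library totals (adjusted p = 0.000129) and 0.11 without library 1 of CD43-ckit-.

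These Aars calls lie near the threshold. Scaling by library totals ended the first (-0.29, adjusted p = 0.0704), and so did leaving out CD43++ckit+ library 1 or 2, or CD43+ckit- library 2 or 3 (adjusted p from 0.0541 to 0.088, edgeR). The second did not pass under DESeq2 size factors (0.26, adjusted p = 0.169), nor on leaving out any of 7 libraries, namely 1 and 2 of CD43++ckit+, all 3 of CD43+ckit-, and 2 and 3 of CD43-ckit- (adjusted p from 0.0503 to 0.13). Of its exon bases, 15.1% overlap another gene (Exosc6), and the strand handling of the counts is not stated.

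Cars, the cysteinyl-tRNA synthetase, passed in no comparison under TMM scaling with all libraries. It had 74.7, 63.8 and 71.8 CPM in CD43++ckit+ cells, 93.9, 91.8 and 95.6 CPM in CD43+ckit- cells, and 100.9, 58.1 and 64.5 CPM in CD43-ckit- cells. Library 1 of CD43-ckit- was the highest of all and the other libraries of that population the lowest or near it. The log2 fold changes were -0.42 ± 0.19, -0.09 ± 0.19 and 0.33 ± 0.19 (smallest adjusted p = 0.116, edgeR); without library 1 of CD43-ckit- the first was -0.42 (adjusted p = 0.00712), the second 0.20 (adjusted p = 0.118) and the third 0.63 (adjusted p = 0.00243), and by library totals the second was 0.86. Without the least correlated libraries the values were -0.44 (adjusted p = 0.00211), 0.18 (adjusted p = 0.166) and 0.62 (adjusted p = 0.000103).

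The 5 genes with an ATF core in the promoter ranged widely. Their log2 fold change for CD43++ckit+ minus CD43-ckit- was 1.62 ± 0.16 for Iars (isoleucine), 1.49 ± 0.20 for Tars (threonine), 0.96 ± 0.16 for Gars (glycine), 0.80 ± 0.11 for Yars (tyrosine) and -0.10 ± 0.16 for Aars. Against CD43+ckit- it was 0.66 ± 0.16, 0.77 ± 0.20, 0.35 ± 0.16, -0.05 ± 0.11 and -0.56 ± 0.16 in the same order, and only Iars, Tars and Aars passed in that comparison, Tars not when CD43++ckit+ library 1 was left out (adjusted p = 0.0589, edgeR) nor when CD43+ckit- library 1 was (adjusted p = 0.051, edgeR); the Yars value was 0.22 by library totals.

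The remaining cytosolic genes are given by range. In CD43++ckit+ minus CD43-ckit-, Dars (aspartate), Lars (leucine) and Wars (tryptophan) had log2 fold changes of 1.51, 1.31 and 1.54. In that comparison Qars (glutamine), Hars (histidine) and Mars (methionine) had 0.82, 0.49 and 0.36, and all 6 passed, with 0.0275 as the largest adjusted p (edgeR). The Mars call was lost on leaving out CD43++ckit+ library 1, CD43++ckit+ library 3, CD43-ckit- library 2 or CD43-ckit- library 3 (adjusted p from 0.0531 to 0.0995), and with DESeq2 size factors (0.13). The Hars call was also lost with size factors (0.24, adjusted p = 0.0618). Sars (serine) had 0.08 ± 0.14 (adjusted p = 0.6), a value that was -0.16 with DESeq2 size factors and 1.0 by library totals (adjusted p = 8.78e-05). In CD43++ckit+ minus CD43+ckit-, Hars and Sars each had -0.28, and Mars and Qars had -0.04 and -0.20; none of those 4 passed. Under alternatives Hars passed as lower with DESeq2 size factors (-0.33, adjusted p = 0.0323), and Sars without the least correlated libraries (-0.34, adjusted p = 0.0172) and with the Wald test (-0.32, adjusted p = 0.0343). By library totals Mars was 0.23 and Qars 0.07.

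Among the mitochondrial synthetases the largest difference belonged to Wars2, the tryptophanyl enzyme. It had 10.75, 10.67 and 8.11 CPM in CD43++ckit+ cells, 3.93, 4.33 and 4.90 CPM in CD43+ckit- cells, and 1.26, 2.49 and 2.37 CPM in CD43-ckit- cells. The CD43-ckit- values rest on 16, 38 and 33 counts, and the stricter filter left Wars2 untested. The populations did not overlap. The log2 fold change was 1.16 ± 0.28 for CD43++ckit+ minus CD43+ckit- (adjusted p = 0.00961, edgeR), 2.27 ± 0.29 minus CD43-ckit- (adjusted p = 0.000177), a 4.81-fold difference, and 1.10 ± 0.29 for CD43+ckit- minus CD43-ckit- (adjusted p = 0.0118).

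Vars2, the valyl enzyme of mitochondria, had 62.0, 60.6 and 56.2 CPM in CD43++ckit+ cells, 24.8, 34.8 and 33.2 CPM in CD43+ckit- cells, and 8.33, 18.1 and 19.0 CPM in CD43-ckit- cells. Here, unlike for cytosolic Vars, the CD43++ckit+ libraries all lay above the CD43+ckit- libraries, with a log2 fold change of 0.94 ± 0.27 (adjusted p = 0.0229, edgeR) that did not pass on leaving out CD43++ckit+ library 1 or 2, or CD43+ckit- library 1 or 3 (adjusted p from 0.0549 to 0.0729). The difference between Vars2 and Vars was not tested. Against CD43-ckit- the log2 fold change was 1.98 ± 0.29 for CD43++ckit+ (adjusted p = 0.000302) and 1.03 ± 0.28 for CD43+ckit- (adjusted p = 0.0136), the last lost without library 2 of CD43+ckit- (0.87, adjusted p = 0.0682). Of the exon bases of Vars2, 8.5% overlap another gene.

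Mars2, the methionyl enzyme, had 24.9, 29.1 and 21.8 CPM in CD43++ckit+ cells, 11.4, 12.1 and 11.0 CPM in CD43+ckit- cells, and 4.09, 8.71 and 6.96 CPM in CD43-ckit- cells. Yars2, the tyrosyl enzyme, had 23.6, 21.6 and 16.7 CPM in CD43++ckit+ cells, 9.04, 9.52 and 10.1 CPM in CD43+ckit- cells, and 4.87, 6.94 and 6.32 CPM in CD43-ckit- cells. Neither gene overlapped between any populations. For CD43++ckit+ minus CD43+ckit- the log2 fold changes were 1.13 ± 0.25 for Mars2 (adjusted p = 0.00653, edgeR) and 1.11 ± 0.19 for Yars2 (adjusted p = 0.00224).

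Against CD43-ckit- they were 1.94 ± 0.26 for Mars2 (adjusted p = 0.000204, edgeR) and 1.77 ± 0.20 for Yars2 (adjusted p = 8.47e-05). In CD43+ckit- minus CD43-ckit- they were 0.80 ± 0.25 for Mars2 (adjusted p = 0.0264) and 0.66 ± 0.20 for Yars2 (adjusted p = 0.0202). These last calls were lost with DESeq2 size factors (0.60 and 0.46, adjusted p = 0.0859 and 0.0824) and without library 2 or library 3 of CD43+ckit- (adjusted p from 0.0533 to 0.103), and that of Mars2 also without library 3 of CD43-ckit- (adjusted p = 0.0512).

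Pars2, Sars2 and Aars2, for proline, serine and alanine, changed mainly between CD43-ckit- and the rest. Pars2 had 9.88, 10.4 and 10.8 CPM in CD43++ckit+ cells, 6.96, 8.75 and 7.60 CPM in CD43+ckit- cells, and 1.57, 3.27 and 3.80 CPM in CD43-ckit- cells. Sars2 had 26.1, 24.0 and 31.5 CPM in CD43++ckit+ cells, 31.6, 32.6 and 27.3 CPM in CD43+ckit- cells, and 8.48, 12.04 and 13.9 CPM in CD43-ckit- cells. Both were lowest in every CD43-ckit- library, and the other populations overlapped for Sars2 but not for Pars2.

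Aars2 had 34.7, 34.1 and 35.8 CPM in CD43++ckit+ cells, 25.4, 30.9 and 26.9 CPM in CD43+ckit- cells, and 9.19, 11.8 and 14.6 CPM in CD43-ckit- cells. Its populations did not overlap. For CD43+ckit- minus CD43-ckit- the log2 fold change was 1.43 ± 0.30 for Pars2, 1.41 ± 0.20 for Sars2 and 1.22 ± 0.18 for Aars2 (largest adjusted p = 0.00435, edgeR). Between CD43++ckit+ and CD43+ckit- none of the 3 passed (0.42 ± 0.29, -0.17 ± 0.19 and 0.33 ± 0.17, smallest adjusted p = 0.157), and the Sars2 value was 0.11 by library totals.

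The cytosolic and mitochondrial alanine enzymes were next compared within libraries. The ratio of Aars to Aars2 counts was 6.45, 6.01 and 6.27 in CD43++ckit+ cells, 12.1, 11.1 and 11.6 in CD43+ckit- cells, and 32.1, 16.9 and 14.1 in CD43-ckit- cells. Each population lay above the one before it with no overlap, and the CD43-ckit- spread came mostly from library 1. The ratio of Hars to Hars2, for histidine, moved less, with 4.29, 4.34 and 4.89 in CD43++ckit+ cells, 5.18, 6.00 and 5.44 in CD43+ckit- cells, and 3.16, 3.66 and 3.60 in CD43-ckit- cells.

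**Figure D4:**
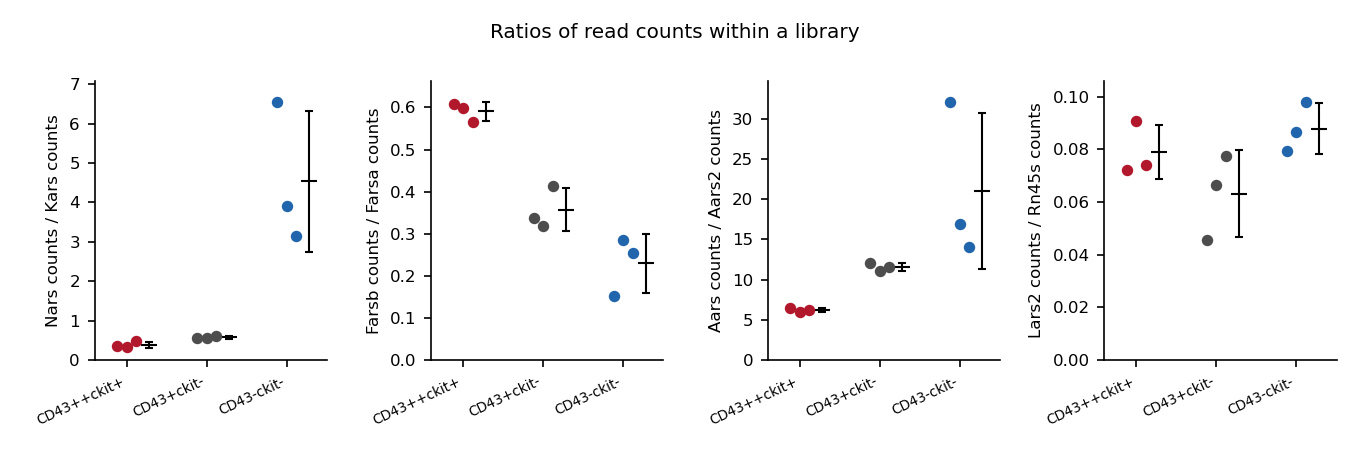
Ratios of read counts of 2 genes within each library (points), with the mean and SD of each population (black); axes start at 0. Nars to Kars and Aars to Aars2 were highest in CD43-ckit- cells, and Farsb to Farsa was highest in CD43++ckit+ cells. Lars2 to Rn45s ran from 0.0454 to 0.0981. Its CD43++ckit+ values overlapped both other populations, which did not overlap each other.

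Of the other mitochondrial genes, Ears2 (glutamate), Tars2 (threonine) and Rars2 (arginine) were higher in CD43++ckit+ cells than in CD43+ckit- cells by log2 fold changes of 0.96, 0.82 and 1.04. Cars2 (cysteine), Iars2 (isoleucine) and Nars2 (asparagine) had values of 0.33, 0.30 and 0.61 there that did not pass. They did pass as higher without the least correlated libraries (0.38, 0.37 and 0.79, adjusted p = 0.0155, 0.00575 and 0.000122, edgeR) and in a fit of those populations only (0.34, 0.32 and 0.62, largest adjusted p = 0.0331). Against CD43-ckit- all 6 were higher in CD43++ckit+ cells, by 1.17 to 1.68 (largest adjusted p = 0.000704, edgeR), and all but Ears2 (0.21 ± 0.19, adjusted p = 0.348) were higher in CD43+ckit- cells. With DESeq2 size factors the CD43+ckit- calls of Tars2 (0.30, adjusted p = 0.194, edgeR), Rars2 (0.45, adjusted p = 0.0889) and Nars2 (0.63, adjusted p = 0.0574) were lost. Of the exon bases of Iars2, 24.2% overlap another gene (Rab3gap2), the largest share among the members.

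Fars2, the single-chain phenylalanyl enzyme of mitochondria, was the mitochondrial gene called lower. It had 20.97, 19.97 and 22.04 CPM in CD43++ckit+ cells, 25.6, 27.4 and 23.9 CPM in CD43+ckit- cells, and 31.9, 29.7 and 29.9 CPM in CD43-ckit- cells. The populations did not overlap and stood in the order opposite to most members. The log2 fold change for CD43++ckit+ minus CD43-ckit- was -0.54 ± 0.12 (adjusted p = 0.00292, edgeR) under TMM scaling and 0.38 by library totals (adjusted p = 0.0363), so its direction depends on the scaling. Its other values, -0.29 ± 0.12 for CD43++ckit+ minus CD43+ckit- (adjusted p = 0.0773) and -0.25 ± 0.12 for CD43+ckit- minus CD43-ckit- (adjusted p = 0.0975), did not pass. The first passed when CD43-ckit- library 1 was left out (adjusted p = 0.0469), without the least correlated libraries (-0.33, adjusted p = 0.0318) and with DESeq2 size factors (-0.33, adjusted p = 0.0461). The second passed as lower with size factors (-0.45, adjusted p = 0.0129) and a stricter filter (-0.41, adjusted p = 0.0201), and as higher by library totals (0.40, adjusted p = 0.0356).

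Relative to Farsb, the beta subunit of the cytosolic phenylalanyl enzyme, Fars2 counts were 0.235, 0.244 and 0.312 in CD43++ckit+ cells, 0.490, 0.532 and 0.399 in CD43+ckit- cells, and 1.85, 1.19 and 1.12 in CD43-ckit- cells. This ratio does not depend on scaling, and its populations did not overlap. Of the exon bases of Fars2, 10.7% overlap other genes (Nrn1 and Lyrm4).

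Hars2, the histidyl enzyme of mitochondria, had 39.7, 37.0 and 28.6 CPM in CD43++ckit+ cells, 36.5, 31.7 and 35.7 CPM in CD43+ckit- cells, and 36.3, 31.1 and 29.9 CPM in CD43-ckit- cells. All populations overlapped, and it passed in no comparison (log2 fold changes 0.02 ± 0.15, 0.11 ± 0.15 and 0.09 ± 0.15, smallest adjusted p = 0.513, edgeR). Relative to the median of all tested genes, these values lie near 0, and their signs turn with DESeq2 size factors (-0.02, -0.13 and -0.10). By library totals the last 2 were 1.03 and 0.75 and passed as higher (adjusted p = 9.55e-05 and 0.00101, edgeR). With the least correlated libraries left out the second was 0.33 (adjusted p = 0.0217). Hars2 and Hars lie head to head and 4.6% of Hars2 exon bases overlap Hars.

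Lars2, the leucyl enzyme of mitochondria, spread widely within every population. It had 360.1, 165.5 and 259.0 CPM in CD43++ckit+ cells, 299.2, 230.0 and 698.0 CPM in CD43+ckit- cells, and 533.4, 308.9 and 1055 CPM in CD43-ckit- cells. All populations overlapped. The log2 fold changes were -0.65 ± 0.54 for CD43++ckit+ minus CD43+ckit- (adjusted p = 0.388, edgeR), -1.27 ± 0.55 minus CD43-ckit- (adjusted p = 0.0659) and -0.63 ± 0.54 for CD43+ckit- minus CD43-ckit- (adjusted p = 0.341). Leaving out 1 library moved them to between -0.95 and -0.02, between -1.60 and -0.68, and between -1.24 and -0.04; the smallest sizes came without library 3 of CD43+ckit- for the first, and without library 3 of CD43-ckit- for the others.

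Rn45s, the precursor of ribosomal RNA, varied alongside it. It had 4977, 1822 and 3500 CPM in CD43++ckit+ cells, 6596, 3453 and 8998 CPM in CD43+ckit- cells, and 6732, 3575 and 10750 CPM in CD43-ckit- cells. Within each population the libraries ranked in the same order for Lars2 and Rn45s, and the ratio of their counts stayed between 0.0454 and 0.0981, although Lars2 itself ranged from 165.5 to 1055 CPM. The part of ribosomal RNA reads in the Lars2 values was not tested.

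The Lars2 call depended on how the spread was handled. In CD43++ckit+ minus CD43-ckit- it passed with DESeq2 size factors (-1.51, adjusted p = 0.0384), without library 3 of CD43+ckit- (-1.26, adjusted p = 0.0396, edgeR) and without library 2 of CD43-ckit- (-1.60, adjusted p = 0.0295). It also passed with the strict filter (-1.46, adjusted p = 0.0367, edgeR) and DESeq2's Wald test (-1.51, adjusted p = 0.00509). Replicate blocks gave adjusted p = 0.012 over all libraries and 0.0182 over those populations (edgeR), which were not taken as paired. When CD43-ckit- library 3 was left out it was -0.68 (adjusted p = 0.263). In CD43+ckit- minus CD43-ckit-, whose replicate numbers were taken to pair the libraries, it passed in a fit of those populations with the replicate number as a block (-0.68, adjusted p = 0.00193). In that blocked fit the calls of Mars and Sars were lost (adjusted p = 0.075 and 0.125).

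Summed over the class, the 20 cytosolic genes took 4065, 3898 and 3472 CPM in CD43++ckit+ cells, 3111, 3423 and 3359 CPM in CD43+ckit- cells, and 2567, 2310 and 2351 CPM in CD43-ckit- cells. The populations did not overlap. The 15 mitochondrial genes other than Lars2 took 548.7, 541.3 and 472.3 CPM in CD43++ckit+ cells, 364.9, 381.4 and 381.7 CPM in CD43+ckit- cells, and 191.6, 232.9 and 244.3 CPM in CD43-ckit- cells, again without overlap. With Lars2 the mitochondrial sum was 706.8 to 908.8 CPM in CD43++ckit+ cells, 611.4 to 1080 CPM in CD43+ckit- cells and 541.9 to 1300 CPM in CD43-ckit- cells, and the populations overlapped.

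Synthetases fall into 2 classes by the fold of the catalytic domain, and both were represented among the genes that changed. Of the 18 class I genes, 10 were higher in CD43++ckit+ cells than in CD43+ckit- cells, 16 higher than in CD43-ckit- cells, and 15 higher in CD43+ckit- cells than in CD43-ckit- cells, with 0 lower in each comparison (15 was 10 with DESeq2 size factors) and medians of 0.60, 1.42 and 0.82. Of the 17 class II genes, 5 were higher and 1 lower, 12 higher and 2 lower, and 14 higher and 1 lower in the same order (14 and 1 were 8 and 2 with size factors), with medians of 0.33, 1.24 and 0.68. Eprs, which holds a domain of each class, is in neither count. The shares over all tested genes were 19.7%, 39.7% and 31% higher, and 20.1%, 27.7% and 20.9% lower, in the same order.

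Among the scaffold proteins of the multi-synthetase complex, Eef1e1 (also called AIMP3) averaged 64.5 CPM in CD43++ckit+ cells, 37.7 CPM in CD43+ckit- cells and 14.2 CPM in CD43-ckit- cells. Its log2 fold change was 0.77 ± 0.20 for CD43++ckit+ minus CD43+ckit- (adjusted p = 0.0126, edgeR; the call was lost without library 1 of CD43++ckit+) and 2.18 ± 0.21 minus CD43-ckit- (adjusted p = 3.41e-05). Aimp1 was higher in CD43++ckit+ cells and in CD43+ckit- cells than in CD43-ckit- cells, by 1.13 ± 0.15 and 1.00 ± 0.15 (largest adjusted p = 0.000771). Aimp2 passed in no comparison under TMM scaling with all libraries (0.36 ± 0.15, 0.01 ± 0.15 and -0.35 ± 0.15). By library totals it passed as higher in each (0.62, 0.94 and 0.32, adjusted p = 0.00359, 8.44e-05 and 0.0385, edgeR). The first also passed when CD43++ckit+ library 3 or CD43-ckit- library 1 was left out (largest adjusted p = 0.0444, edgeR). With DESeq2 size factors 1 of the 3 scaffold genes was lower in CD43+ckit- against CD43-ckit-.

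Mitochondria lack a dedicated glutaminyl synthetase and make their charged glutamine transfer RNA through the amidotransferase subunits Qrsl1, Gatb and Gatc. These, with the formyltransferase Mtfmt and the elongation factors Tufm and Tsfm, gave 6 genes, all 6 higher in CD43++ckit+ cells than in CD43-ckit- cells (log2 fold changes 0.65 to 1.51, largest adjusted p = 0.0029, edgeR). Of them, 4 were higher in CD43++ckit+ cells than in CD43+ckit- cells, with Tsfm at 1.03 ± 0.25, Qrsl1 at 0.67 ± 0.20, Tufm at 0.61 ± 0.20 and Gatb at 0.56 ± 0.19; without single libraries the calls of Qrsl1 (4 libraries), Tufm (6) and Gatb (7) were lost, with adjusted p up to 0.15, and with DESeq2 size factors 2 were higher. In that comparison Mtfmt and Gatc had 0.44 and -0.10 and did not pass, and Gatc was positive by library totals. In CD43+ckit- against CD43-ckit- 5 were higher, from 0.72 (Qrsl1) to 0.95 (Gatb), and Tsfm had 0.48 ± 0.25 (adjusted p = 0.131, edgeR). The shares of all tested genes called higher were 39.7% in CD43++ckit+ against CD43-ckit-, 19.7% against CD43+ckit-, and 31% in CD43+ckit- against CD43-ckit-.

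The wider transfer RNA pathway was described from lists of genes named for their function. Of 35 genes for processing, export and modification of transfer RNA, 24 were higher and 1 lower in CD43++ckit+ against CD43+ckit-, 31 higher and 1 lower against CD43-ckit-, and 19 higher and 2 lower in CD43+ckit- against CD43-ckit-, with medians of 0.79, 1.44 and 0.57. Of all tested genes 19.7%, 39.7% and 31% were higher in these comparisons, and 20.1%, 27.7% and 20.9% lower. In CD43+ckit- against CD43-ckit- the 19 higher were 10 with DESeq2 size factors (median 0.38) and 27 by library totals (median 1.20). Trmt6, a subunit of a methyltransferase that modifies adenosine, had log2 fold changes of 1.38 ± 0.22, 2.03 ± 0.22 and 0.65 ± 0.22, the last not passing when CD43+ckit- library 2, CD43+ckit- library 3 or CD43-ckit- library 1 was left out (adjusted p from 0.0599 to 0.0927). Elp3, the catalytic subunit of Elongator, which modifies the wobble base, had 0.78 ± 0.17, 1.73 ± 0.18 and 0.95 ± 0.17, and Tyw1, of wybutosine synthesis, had 0.35 ± 0.14, 1.39 ± 0.14 and 1.05 ± 0.14. Of these 9 values all passed but the first of Tyw1 (adjusted p = 0.0736, edgeR).

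Of 22 genes of RNA polymerase III, which transcribes transfer RNA genes, and its factors, 7 were higher and 3 lower in CD43++ckit+ against CD43+ckit-, 16 higher and 2 lower against CD43-ckit-, and 17 higher and 2 lower in CD43+ckit- against CD43-ckit- (medians 0.36, 0.83 and 0.67). With DESeq2 size factors the first comparison had 5 higher and 5 lower and the third 11 higher; by library totals the first had 12 higher and 1 lower. That comparison had 12 higher and 4 lower without the least correlated libraries. Under TMM scaling 19.7%, 39.7% and 31% of all tested genes were higher in the 3 comparisons, and 20.1%, 27.7% and 20.9% lower. The subunit gene Polr3d averaged 23.6 CPM in CD43++ckit+ cells, 9.64 CPM in CD43+ckit- cells and 5.87 CPM in CD43-ckit- cells. Maf1, a repressor of the polymerase, ran the other way, with means of 111.7 CPM in CD43++ckit+ cells, 319.9 CPM in CD43+ckit- cells and 558.8 CPM in CD43-ckit- cells. Its log2 fold changes were -1.52 ± 0.16, -2.32 ± 0.17 and -0.80 ± 0.16 (largest adjusted p = 0.0032, edgeR), and the third was -0.14 by library totals, where it did not pass (adjusted p = 0.372). Gtf3c5, of the factor TFIIIC, had 0.20 ± 0.14, 1.26 ± 0.14 and 1.06 ± 0.14.

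Genes for proofreading of mischarged transfer RNA and for charging selenocysteine numbered 8, of which 1 was higher and 1 lower in CD43++ckit+ against CD43+ckit-, 6 higher and 0 lower against CD43-ckit-, and 8 higher in CD43+ckit- against CD43-ckit- (medians 0.16, 1.25 and 1.12); the first comparison had 0 higher and 2 lower with DESeq2 size factors, and 2 higher and 0 lower by library totals. The lower gene was Pstk, the kinase of the selenocysteine route, at -0.63 ± 0.14. By library totals that value was -0.36 and did not pass (adjusted p = 0.183, edgeR). Against CD43-ckit- Pstk had 0.70 ± 0.15 in CD43++ckit+ cells and 1.33 ± 0.15 in CD43+ckit- cells. Prorsd1 and Dtd2, which act in editing, had 1.13 ± 0.14 and 1.38 ± 0.19 in CD43++ckit+ against CD43-ckit-. Of 6 cytosolic elongation factor genes, 0 were higher and 2 lower, 3 higher and 1 lower, and 4 higher and 1 lower in the 3 comparisons. These counts turned with the scaling, since by library totals the first comparison had 3 higher and 1 lower, and with DESeq2 size factors the third had 1 higher and 1 lower. The first had 3 higher and 2 lower without the least correlated libraries. For comparison with both lists, 19.7%, 39.7% and 31% of all tested genes were higher under TMM, and 20.1%, 27.7% and 20.9% lower. Eef1g had 0.53 ± 0.20, 1.26 ± 0.20 and 0.73 ± 0.20, with the first not passing, Eef2k, the kinase that inhibits eEF2, had -0.63 ± 0.16, 0.37 ± 0.16 and 1.00 ± 0.17, with the second not passing, and Eef1d had -0.46 ± 0.12, -0.90 ± 0.12 and -0.44 ± 0.12, which by library totals were -0.19, 0.03 and 0.22.

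Genes of the amino acid response went in both directions. Of 23 tested ATF4 response genes other than synthetases, 3 were higher and 8 lower in CD43++ckit+ against CD43+ckit-, 5 higher and 11 lower against CD43-ckit-, and 4 higher and 11 lower in CD43+ckit- against CD43-ckit-, with medians of -0.08, -1.0 and -1.05. Of all tested genes 19.7%, 39.7% and 31% were higher and 20.1%, 27.7% and 20.9% lower in these comparisons. By library totals the counts were 4 higher and 7 lower, 9 higher and 10 lower, and 6 higher and 8 lower, with medians of 0.19, -0.01 and -0.44. Atf5, a transcription factor induced with ATF4, averaged 17.5 CPM in CD43++ckit+ cells, 50.8 CPM in CD43+ckit- cells and 510.2 CPM in CD43-ckit- cells.

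Sesn2, a leucine sensor that inhibits mTORC1, averaged 27.8 CPM in CD43++ckit+ cells, 89.8 CPM in CD43+ckit- cells and 695.7 CPM in CD43-ckit- cells. Slc3a2, the shared heavy chain of amino acid transporters, averaged 161.8, 256.5 and 1084 CPM in the same order. For CD43++ckit+ minus CD43-ckit- the log2 fold changes were -4.87 ± 0.20 for Atf5, -4.65 ± 0.21 for Sesn2 and -2.74 ± 0.16 for Slc3a2 (largest adjusted p = 2.39e-06, edgeR). The 5 response genes called higher in that comparison were Asns, the asparagine synthetase (1.02 ± 0.12), the serine synthesis genes Psat1 (2.0 ± 0.39) and Psph (1.5 ± 0.27), the cationic amino acid transporter gene Slc7a1 (1.85 ± 0.22), and Cth, of cysteine synthesis (2.04 ± 0.39), all with adjusted p of 0.00154 or less (edgeR).

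ATF4 is translated when eIF2alpha is phosphorylated, and genes of 4 eIF2alpha kinases were tested. Eif2ak1, which encodes HRI, the kinase that senses haem in erythroid cells, averaged 149.4 CPM in CD43++ckit+ cells, 547.8 CPM in CD43+ckit- cells and 1773 CPM in CD43-ckit- cells, with log2 fold changes of -1.87 ± 0.18, -3.57 ± 0.19 and -1.69 ± 0.18 (largest adjusted p = 0.000326, edgeR). Eif2ak4, which encodes GCN2, the kinase activated by uncharged transfer RNA, ran the other way with means of 35.8, 24.2 and 15.97 CPM and log2 fold changes of 0.56 ± 0.17, 1.16 ± 0.17 and 0.60 ± 0.17; the first was lost without any of 4 libraries and the third without any of 3 (adjusted p up to 0.116). Gcn1l1, the activator of GCN2, had -0.39 ± 0.17, -1.06 ± 0.17 and -0.67 ± 0.17, of which the last 2 passed, and by library totals they were -0.12 and 0 and did not. Eif2ak2 and Eif2ak3 passed in no comparison under TMM scaling with all libraries. By library totals both were higher in CD43++ckit+ cells than in CD43-ckit- cells (0.66 and 0.81, adjusted p = 0.0149 and 0.00199, edgeR). Eif2ak2 was then also higher in CD43+ckit- cells than in CD43-ckit- cells (0.97, adjusted p = 0.00275). Leaving out CD43+ckit- library 2, Eif2ak2 passed in CD43++ckit+ against CD43+ckit- (adjusted p = 0.0383, edgeR).

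Summed markers of marrow cell types are given by population. The 9 erythroid markers with a row summed to 1370 to 2160 CPM in CD43++ckit+ cells, 13100 to 15500 CPM in CD43+ckit- cells and 28600 to 44300 CPM in CD43-ckit- cells. The 10 neutrophil markers summed to 107 to 6730, 551 to 3630 and 4470 to 17800 CPM in the same order, the 8 B-lineage markers to 3.67 to 25.4, 14.9 to 43.8 and 84.8 to 223 CPM, and the 8 monocyte and macrophage markers to 10.7 to 62.8, 10.5 to 32 and 108 to 115 CPM. The 8 T and NK cell markers summed to 4.98 to 24.3, 29.4 to 33.8 and 27.0 to 47.1 CPM, the 8 mast cell and basophil markers to 1120 to 2180, 756 to 839 and 1200 to 1540 CPM, and the 7 stroma and endothelium markers to 0.821 to 6.88, 2.56 to 4.97 and 16.9 to 18.2 CPM.

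No marker was at 0 in all libraries of a population. The erythroid, B-lineage, macrophage and stroma sums were highest in every CD43-ckit- library, the population in which most synthetases were lowest and Nars highest, while the neutrophil sums of CD43-ckit- and CD43++ckit+ overlapped. By single genes, 8 of 9 erythroid, 8 of 8 B-lineage, 2 of 8 macrophage and 2 of 4 tested stroma markers were lower in CD43++ckit+ cells than in CD43-ckit- cells (edgeR). Of all tested genes 27.7% were lower there. In CD43+ckit- against CD43-ckit- 2 of the 9 erythroid markers were lower, Alas2 among them, Rhag was higher and 6 did not pass. Most of the summed CPM was Slc4a1 and Alas2. The 10 neutrophil markers had medians of -0.16, -2.49 and -2.43 in the 3 comparisons, and no single one passed (smallest adjusted p = 0.0617, edgeR). Which cells these transcripts came from was not tested, nor was their part in the synthetase results.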

How the data were processed

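The authors' deposited values are raw read counts by gene symbol in 9 libraries. Libraries were prepared from 1 ug of total RNA using Illumina TruSeq reagents, according to the labels' protocols. The submitters' processing notes list HTSeq, TopHat2 2.0.4, CASAVA 1.8, edgeR and RSEM but do not say what each did. They list a human build although the symbols are those of mouse, so which build, annotation and strand setting gave the counts was not stated in the sources used here. The table had 6162 rows with 0 counts throughout, and 27 rows carried dates in place of symbols.

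Counts were tested in R 4.3.3 with edgeR 4.0.16: filterByExpr (minimum count 10, minimum total count 15), TMM scaling, 3 group means fitted to all 9 libraries by a robust glmQLFit, and glmQLFTest, with Benjamini-Hochberg adjustment over all 12573 genes in each of the 3 comparisons. The standard error is the log2 fold change divided by the square root of F. The scripts were tested on simulated data. Within each population, every pair of libraries differed beyond sampling noise (chi-square over its degrees of freedom 15.17 to 117.48), and none was merged. Alternatives were DESeq2 1.42.0 (size factors and Wald test), library totals, no filter or a strict one (at least 1 CPM in all 9 libraries), fits of 2 populations, replicate blocks and left-out libraries. The strict filter used CPM of unscaled library totals, not the TMM-scaled CPM printed here.

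Per-library values are given for members called against the majority of their class, called in no comparison, highest in CD43+ckit- with both steps called, or among the 3 largest changes in a direction. The members and lists were chosen with earlier results of these data known. The replicate numbers were taken to pair CD43+ckit- with CD43-ckit-. Deviations from the population mean in their libraries of equal number correlated at 0.525, 0.366 and 0.303. Libraries of unequal number reached 0.343 (2 with 3) and 0.349 (3 with 2), so these values do not establish the pairing. The lowest equal-number correlation was -0.617 for CD43++ckit+ with CD43+ckit- and -0.318 for CD43++ckit+ with CD43-ckit-, which were not taken as paired. Libraries of unequal number in CD43++ckit+ and CD43+ckit- reached 0.655 (2 with 1) and 0.628 (3 with 2), above every equal-number value of the populations taken as paired. Exon overlaps come from GENCODE M21 and promoters from RefSeq GRCm38.p6; a promoter match is a description of letters, not of binding. A further gene is not reported here.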

Additional observations from a re-analysis of the deposited data

How the results depend on the processing

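Scaling moved the values most. The median over all tested genes was 0.01, 0.19 and 0.13 under TMM (CD43++ckit+ minus CD43+ckit-, CD43++ckit+ minus CD43-ckit-, CD43+ckit- minus CD43-ckit-), -0.03, -0.05 and -0.07 with DESeq2 size factors, and 0.28, 1.11 and 0.78 by library totals. The share of calls that were higher was 49.4%, 58.9% and 59.7% under TMM, 45%, 49.5% and 45.8% with size factors, and 67%, 82.2% and 85.2% by library totals. Relative to those medians the cytosolic median was 0.31, 0.95 and 0.61 under TMM and 0.29, 0.94 and 0.61 by library totals, and the mitochondrial median 0.50, 1.25 and 0.69 against 0.49, 1.21 and 0.65.

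Cytosolic genes called lower in CD43++ckit+ versus CD43+ckit- numbered 1, but 2 with size factors or the strict filter, 0 by library totals, 4 with DESeq2's Wald test, 3 in a fit of those populations only, 3 without the least correlated libraries and 0 to 3 without single libraries. Mitochondrial genes called lower there numbered 0, but 1 with size factors, the Wald test or without the least correlated libraries and 0 to 1 without single libraries; those called higher numbered 7, but 11 in a fit of those populations only. Against CD43-ckit- 1 was lower in CD43++ckit+, but 2 with size factors, the strict filter, the Wald test or either replicate block, 0 by library totals and 1 to 2 without single libraries. In CD43+ckit- versus CD43-ckit- 12 mitochondrial genes were higher, but 7 with size factors and 7 to 12 without single libraries. The strict filter also gave 7, with Pars2 and Wars2 left untested. Those lower numbered 0, but 1 with size factors, the strict filter, the Wald test or the replicate block of the populations taken as paired. The cause of these changes was not tested.

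Reversed signs were few and, Fars2 apart, concerned values not called under TMM. Hars2 was -0.02, -0.13 and -0.10 with size factors and the Wald test, and -0.01, -0.07 and -0.06 with the strict filter. In CD43++ckit+ minus CD43-ckit-, Sars was -0.16 with size factors and the Wald test, -0.10 with the strict filter, and -0.01 in the fit of those populations with or without the replicate block; Aars was 0.84, 0.02 and 0.08 by library totals, without a filter and without the least correlated libraries, and Cars 0.86, 0.03 and 0.18. By library totals Fars2 was 0.38 in that comparison and 0.40 in CD43+ckit- minus CD43-ckit-. In CD43++ckit+ minus CD43+ckit-, library totals gave 0.09 for Farsa, 0.23 for Mars, 0.07 for Qars, 0.22 for Yars and 0.11 for Sars2, and Vars was -0.03 without the least correlated libraries.

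Without single libraries, CD43++ckit+ minus CD43+ckit- spanned -0.11 to 0.06 for Mars, -0.11 to 0.02 for Yars and -0.07 to 0.15 for Hars2, and CD43++ckit+ minus CD43-ckit- spanned -0.20 to 0.11 for Aars, -0.24 to 0.20 for Cars and -0.02 to 0.19 for Sars. The populations taken as paired were CD43+ckit- and CD43-ckit-. There the replicate block fitted to those populations changed the calls of Lars2, Mars and Sars and no other member. Fitted to all libraries it ended those of Sars (0.37, adjusted p = 0.0668, edgeR) and Tars2 (0.49, adjusted p = 0.0598). Between the populations not taken as paired, the block of the 2 populations compared ended 4 calls and the block of all libraries none. Both gained Lars2 against CD43-ckit- (-1.26 and -1.11). Depth limits the low mitochondrial genes most, such as Wars2 and Pars2, which the strict filter removed.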
